A study of Rattus norvegicus with 12 samples.

Results

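Toll-like receptors and the proteins that pass their signals on were examined in the left ventricle of the rat 1 day after coronary ligation. The group was set by 10 gene names, Tlr2, Tlr4, Tlr5, Tlr7, Tlr8, Tlr9, Cd14, Ly96, Myd88 and Ticam1, and 8 of them had a row among the 34599 rows of the count table. Ly96 and Ticam1 had no row under these symbols and are not analysed here. All 8 genes with a row passed the filter on low counts and were tested.

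RNA-seq of 12 male SD (Sprague-Dawley) rats was used, 4 in each of 3 groups, and the tissue was left ventricle, taken from the infarct region where there was one. In Sham rats the chest was opened and the coronary artery left untied. MI rats had the left anterior descending coronary artery ligated to create a myocardial infarction (MI) and received no patch. The iCarP+/Light+ rats had the same ligation, then 100 µL of a suspension of Chlorella, a green alga, injected into the infarcted wall, then a flexible light-scattering patch (iCarP) glued to the epicardium and lit for 3 h at 55 mW. Surgery was done under chloral hydrate in all groups, no genotype was named, the study's methods give no age for the rats of the infarction experiment (they give one for rats of another experiment), and rats with the unlit patch were not analysed here. The comparison of iCarP+/Light+ with MI therefore covered injection, algae, adhesive, patch and light together, and these cannot be told apart. No batch was labelled, and if a batch followed the groups, its effect and theirs cannot be told apart.

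Toll-like receptors are sensors of innate immunity that recognise molecules of microbes and molecules released by damaged cells. TLR2, which pairs with TLR1 or TLR6, and TLR4 and TLR5 sit at the cell surface and bind lipoproteins, lipopolysaccharide and flagellin, whereas TLR3, TLR7, TLR8 and TLR9 sit in endosomes and bind nucleic acids. All of them except TLR3 signal through the adaptor MyD88 to NF-kB and inflammatory cytokines, TLR3 and endosomal TLR4 use the adaptor TRIF (the product of Ticam1) to induce interferon, and CD14 hands lipopolysaccharide to TLR4 and its partner MD-2 (the product of Ly96).

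The promoters of 4 receptors are printed first. Tlr2 and Tlr5 are shown because they had the largest log2 fold changes of the 8 genes over MI, and Tlr7 and Tlr8 because they are neighbours on the X chromosome and the members whose values there were negative, although neither was called. They are the 250 bases before the annotated start from RefSeq on build GRCr8, read 5′ to 3′ along the gene, and capitals mark matches to any of 5 motifs sought on both strands. All 8 genes matched a RefSeq promoter, and the choice of these 4 and of the motifs was made after the values were seen.
Tlr2 chr2:171504558-171504807 (- strand): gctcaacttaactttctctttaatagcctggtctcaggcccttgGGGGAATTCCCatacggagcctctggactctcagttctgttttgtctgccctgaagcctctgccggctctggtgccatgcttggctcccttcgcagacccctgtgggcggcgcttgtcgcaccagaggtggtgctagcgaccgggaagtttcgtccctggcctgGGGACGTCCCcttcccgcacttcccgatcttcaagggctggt
Tlr5 chr13:97182910-97183159 (+ strand): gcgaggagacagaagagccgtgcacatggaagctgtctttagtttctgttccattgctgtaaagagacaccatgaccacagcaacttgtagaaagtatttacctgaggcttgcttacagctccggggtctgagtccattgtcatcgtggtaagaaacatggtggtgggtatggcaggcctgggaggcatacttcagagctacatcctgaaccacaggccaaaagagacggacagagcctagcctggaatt
Tlr7 chrX:30644176-30644425 (+ strand): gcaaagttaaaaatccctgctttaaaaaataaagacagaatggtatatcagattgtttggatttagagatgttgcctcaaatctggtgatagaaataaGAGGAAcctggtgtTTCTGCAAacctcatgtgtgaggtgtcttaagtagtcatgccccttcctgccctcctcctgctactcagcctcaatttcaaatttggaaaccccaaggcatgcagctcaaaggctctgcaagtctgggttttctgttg
Tlr8 chrX:30708476-30708725 (+ strand): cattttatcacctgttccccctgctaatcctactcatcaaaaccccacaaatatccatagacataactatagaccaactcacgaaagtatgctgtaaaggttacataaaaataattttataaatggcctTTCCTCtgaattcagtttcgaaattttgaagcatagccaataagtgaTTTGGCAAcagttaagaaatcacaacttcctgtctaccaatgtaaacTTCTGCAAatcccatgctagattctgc
Tlr2, which had the largest rise of the 8 genes in MI, had 3 matches to the NF-kB motif, beginning 206, 205 and 42 bases before the start, and the first 2 overlap in a single run of capitals. It was the only one of the 8 genes with that motif in this window, which 6.33% of all 33469 RefSeq promoters of this length held. The Tlr7 and Tlr8 promoters each held the PU.1 core GAGGAA, 152 and 121 bases before the start, where the share of all promoters was 23.3%. Both also held TTGCNNAA, a C/EBP motif, at 138 bases in Tlr7 and at 74 and 27 bases in Tlr8, against 9.22% of all promoters. The window of Tlr5 held none of the 5 motifs, of which the others were the interferon-response motif (GAAA and GAAA again after any 2 bases, 3.41% of promoters) and the AP-1 motif TGANTCA (6.34%). Of the promoters not printed, Tlr4 and Cd14 held the PU.1 core at 2 places each, Tlr9 held it once with an AP-1 match, and Myd88 held an interferon-response match and an AP-1 match. A match is a description of letters, and binding was not measured.

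In the rn6 coordinates of the count table, Tlr2 lay at chr2:182840727-182846061 on the minus strand, Tlr4 at chr5:82587420-82601052 on the plus strand and Tlr5 at chr13:101381510-101385764 on the plus strand. Tlr7 (chrX:28486869-28512957) and Tlr8 (chrX:28539158-28562803) are neighbours on the plus strand of the X chromosome. Tlr9 lay at chr8:114916122-114920171 on the plus strand, Myd88 at chr8:128022473-128026841 on the minus strand and Cd14 at chr18:29560365-29562153 on the minus strand. No other row of the table overlapped any of these genes.

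Levels below are CPM, read counts scaled to a common library size, with TMM scaling, which evens out differences in the make-up of the libraries. Totals per rat were 14064414 to 17136958 counts, and 3 counts, taken as the floor of detection, were 0.144 to 0.228 CPM. Fold changes come from edgeR's quasi-likelihood test of all 12 rats with Benjamini-Hochberg adjustment over 15101 genes, and a gene was called at an adjusted p below 0.05. Marker genes of cell types differed in level between the groups. Summed cardiomyocyte markers were 48940 to 53500 CPM in Sham, 3069 to 6270 in the MI group and 2497 to 7380 in iCarP+/Light+ rats. Summed neutrophil markers, led by Csf3r, were 4.41 to 8.03 CPM in Sham, 187 to 246 in the MI group and 1279 to 3564 in iCarP+/Light+ rats. Summed monocyte and macrophage markers (7 of 9 with a row) were 371 to 599, 3806 to 6611 and 2755 to 4534 CPM. This sum was led by Lyz2, with means of 211, 4061 and 2964 CPM. In the same order, T cell markers summed to 5.69 to 10.3, 82.9 to 217 and 22.9 to 67.2 CPM, dendritic cell markers to 43.1 to 55.6, 82.1 to 128 and 181.5 to 241 CPM, and B cell markers to 2.02 to 3.91, 1.12 to 3.94 and 3.13 to 6.53 CPM. The T cell sum was led by Cd8a, with means of 2.87, 127 and 35.8 CPM, while the means of Cd3d, Cd3e and Cd3g were at most 4.75 CPM in any group. The dendritic sum was led by Itgax, which other myeloid cells also carry, with means of 14.2, 68.0 and 170 CPM, while Xcr1, Clec9a and Zbtb46 were called lower and Flt3 and Siglech higher in MI than in Sham. Endothelial markers summed to 1504 to 1682, 636 to 1036 and 876 to 982 CPM, fibroblast markers to 7172 to 9054, 2164 to 2555 and 941 to 2417 CPM, and red blood cell markers to 7950 to 10690, 2525 to 7033 and 6256 to 17640 CPM. No marker with a row was at 0 in every rat. The mitochondrial share of counts was 22.8% to 28.9% in Sham, 8.52% to 11.5% in the MI group and 7.14% to 14.2% in iCarP+/Light+ rats. In bulk tissue, a change in the number of cells of a type and a change in RNA per cell cannot be told apart, and the part that these shifts had in the results below was not tested.

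In MI, 6 of the 8 genes were elevated over Sham (Tlr2, Cd14, Tlr7, Tlr8, Myd88 and Tlr4), and none was lower. Among all genes tested, 30.2% were called higher and 33.6% lower in this comparison (63.8% in either direction), so a call alone was common. Over the 8 genes the median log2 fold change was 2.08, against -0.06 over all genes. With the illuminated patch, 4 of the 8 were elevated over MI (Tlr2, Tlr5, Myd88 and Tlr4) and none was lower, where 11.6% of all genes were called higher and 2.01% lower (13.6% in either direction). Over all 8 the median was then 0.76 on the log2 scale, against 0.01 over all genes. Against Sham, all 8 genes were higher in iCarP+/Light+ rats, where 33.5% of all genes were called higher and 33% lower (66.5% in either direction). Both comparisons with MI share the MI rats, so their values are not independent.

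**Figure D1:**
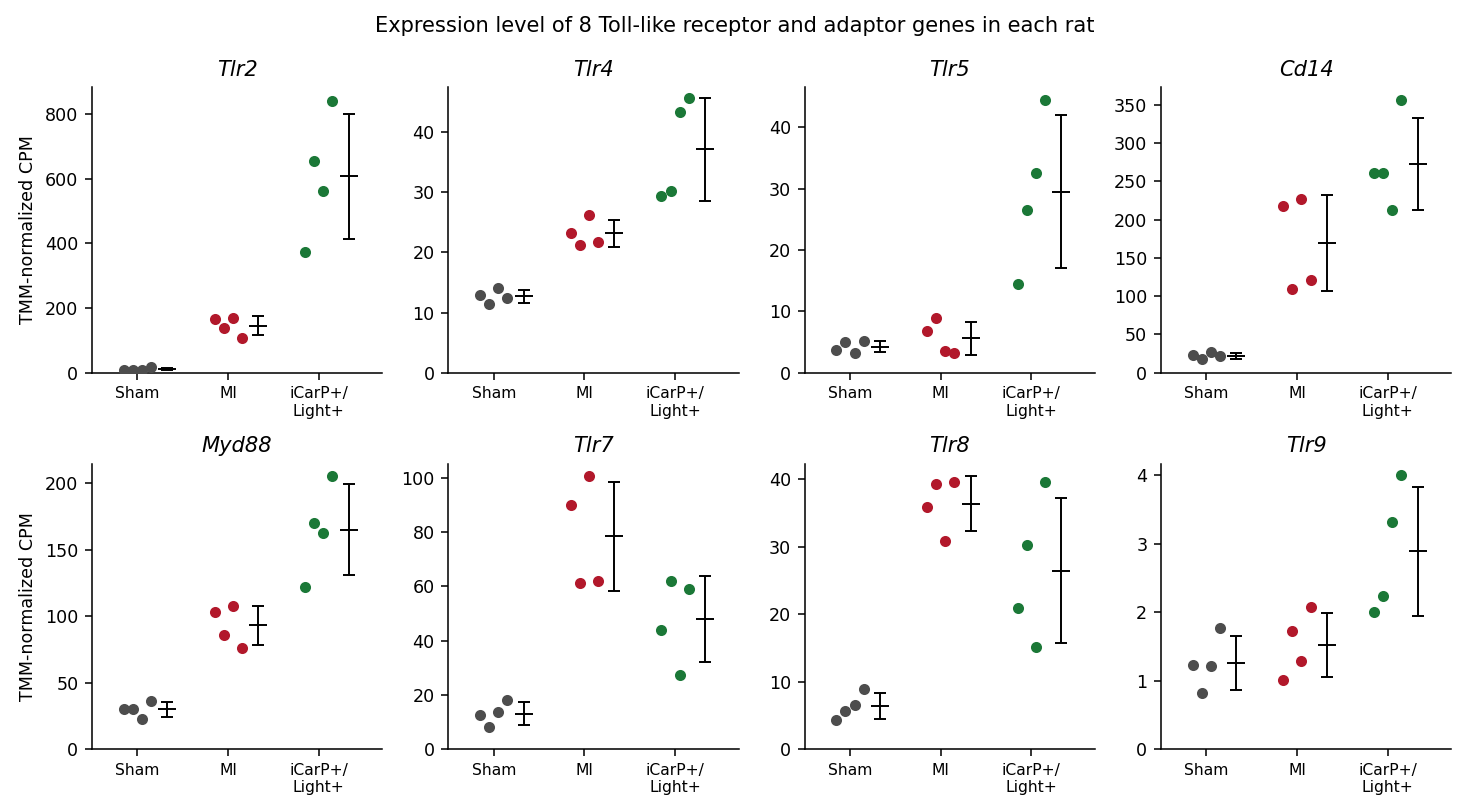
TMM-normalized CPM (y axis, linear, one scale per gene) of the 8 genes in each rat, by group (Sham, MI, iCarP+/Light+), with points for rats and bars for mean ± SD (n = 4). Tlr2, Tlr4, Tlr5 and Myd88 in the 4 iCarP+/Light+ rats sit above every MI rat, whereas Tlr7, Tlr8, Tlr9 and Cd14 overlap between those groups.

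Tlr2, the receptor for bacterial lipoproteins, had the largest rise of the 8 in MI. It stood at 8.89, 9.35, 8.73 and 17.6 CPM in the 4 Sham rats, at 167, 139, 168 and 106 CPM in the MI rats, and at 374, 653, 560.5 and 841 CPM in the iCarP+/Light+ rats. The 3 groups did not overlap. Among all genes tested, groups without overlap were higher for 27.6% and lower for 31.4% in MI against Sham, higher for 12.1% and lower for 4.37% in iCarP+/Light+ against MI, and higher for 31.9% and lower for 31.6% in iCarP+/Light+ against Sham. Group means were 11.15 ± 4.32, 145 ± 29.2 and 607 ± 194.5 CPM (SD, n = 4 each). Tlr2 was 13.0-fold higher in MI than in Sham (log2 fold change 3.70, SE 0.30, adjusted p = 4.56e-07). It was 4.185-fold higher in iCarP+/Light+ than in MI (log2 fold change 2.07, SE 0.28, adjusted p = 2.49e-04), and 54.5-fold higher than in Sham.

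The partners of Tlr2, which were outside the 10 names, moved in the same direction. Tlr1 was at 1.37 to 2.21 CPM in Sham, 14.8 to 22.4 CPM in the MI group and 28.5 to 53.7 CPM in iCarP+/Light+ rats, a log2 fold change of 3.58 in MI against Sham (adjusted p = 1.40e-07) and of 1.05 in iCarP+/Light+ against MI (adjusted p = 0.00365). Tlr6 was at 3.54 to 4.86, 13.3 to 20.6 and 21.6 to 56.9 CPM, with log2 fold changes of 2.15 (adjusted p = 1.35e-05) and 1.04 (adjusted p = 0.0117). Neither gene overlapped between the groups. The rise of Tlr6 over MI was not called without iCarP+/Light+ rat 5 (log2 fold change 0.66, adjusted p = 0.0535).

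Tlr4, the receptor for lipopolysaccharide, changed less. Its level was 12.9, 11.5, 14.1 and 12.4 CPM in Sham, 23.3, 21.3, 26.2 and 21.8 CPM in the MI group, and 29.3, 30.2, 43.4 and 45.7 CPM in iCarP+/Light+ rats. The groups again did not overlap, with means of 12.7 ± 1.10, 23.1 ± 2.19 and 37.1 ± 8.61 CPM (SD, n = 4 each). Tlr4 rose 1.82-fold in MI (log2 fold change 0.86, SE 0.16, adjusted p = 3.35e-04) and a further 1.60-fold with the illuminated patch (log2 fold change 0.68, SE 0.15, adjusted p = 0.00909). The second rise was not called without iCarP+/Light+ rat 5 (log2 fold change 0.49, adjusted p = 0.0681) or when total counts alone set the scale (0.41, adjusted p = 0.050).

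Within a rat, the ratio of Tlr2 to Tlr4 does not depend on scaling. The mean log2 ratio of their counts was -0.25 ± 0.53 in Sham, 2.62 ± 0.24 in the MI group and 4.00 ± 0.38 in iCarP+/Light+ rats (SD, n = 4 each). It was 2.87 higher in MI than in Sham and 1.37 higher in iCarP+/Light+ than in MI, each with p = 0.0286 in a two-sided exact permutation test, adjusted p = 0.0449 over 33 tests of 11 ratios. This p is the smallest that 4 rats against 4 can give.

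Cd14, the co-receptor that binds lipopolysaccharide for TLR4, was at 23.6, 17.2, 26.8 and 21.7 CPM in Sham, at 218.5, 109, 228 and 121 CPM in the MI group, and at 261, 261, 213 and 356 CPM in iCarP+/Light+ rats. The MI rats fell into a high and a low pair, and the lowest iCarP+/Light+ rat lay below both rats of the high pair. Cd14 was 7.58-fold higher in MI than in Sham (log2 fold change 2.92, SE 0.27, adjusted p = 1.08e-06). Its log2 fold change in iCarP+/Light+ against MI was 0.69 (SE 0.25, adjusted p = 0.0887), short of the threshold. Without MI rat 4, the rat with the highest MI level, that difference was 0.86 and was called (adjusted p = 0.0426). The log2 ratio of Cd14 to Tlr4 was 2.00 higher in MI than in Sham (exact permutation p = 0.0286, adjusted p = 0.0449) and differed by 0.09 between iCarP+/Light+ and MI (exact permutation p = 0.971). An unnamed locus at chr5:1971934-1989949, which the table describes as matching mouse LY96, was at 2.60 to 4.40 CPM in Sham, 4.79 to 13.5 CPM in the MI group and 9.27 to 15.5 CPM in iCarP+/Light+ rats. It is not counted here as Ly96, and its log2 fold changes were 1.19 in MI against Sham (adjusted p = 0.0044) and 0.67 in iCarP+/Light+ against MI (adjusted p = 0.174), and without MI rat 4 the second was 1.04 and was called (adjusted p = 0.0137).

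Tlr5, the flagellin receptor, was elevated in iCarP+/Light+ rats but not called in MI. It stood at 3.61, 4.98, 3.26 and 5.09 CPM in Sham and at 6.75, 8.85, 3.52 and 3.19 CPM in MI, and these 2 groups overlapped. In iCarP+/Light+ rats it reached 14.5, 26.5, 32.5 and 44.45 CPM, each above every MI and Sham rat. The mean was 4.24 ± 0.933 CPM in Sham, 5.58 ± 2.71 CPM in the MI group and 29.5 ± 12.5 CPM in iCarP+/Light+ rats (SD, n = 4 each). The log2 fold change was 0.40 in MI against Sham (SE 0.38, adjusted p = 0.374) and 2.40 in iCarP+/Light+ against MI (SE 0.37, adjusted p = 7.34e-04), a rise of 5.275-fold. With total counts alone as the scale, Tlr5 was called higher in MI than in Sham (0.97, adjusted p = 0.0328), where the median of all genes was 0.52 and Tlr5 stood 0.45 above it. The difference between these 2 fold changes was not tested.

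Myd88, the adaptor shared by these receptors, rose in both steps. Its level was 30.3, 30.3, 23.1 and 36.0 CPM in Sham, 103, 86.3, 108 and 76.0 CPM in the MI group, and 122, 170, 163 and 206 CPM in iCarP+/Light+ rats. No group overlapped another. Myd88 was 3.12-fold higher in MI than in Sham (log2 fold change 1.64, SE 0.18, adjusted p = 4.92e-06) and 1.77-fold higher in iCarP+/Light+ than in MI (log2 fold change 0.82, SE 0.18, adjusted p = 0.00648).

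Of the endosomal receptors, Tlr7 and Tlr8 rose in MI, Tlr9 was not called there and Tlr3 fell. Tlr7, which senses single-stranded RNA, was at 12.5, 8.12, 13.8 and 18.2 CPM in Sham, at 90.0, 61.2, 100.5 and 61.8 CPM in the MI group, and at 43.8, 62.1, 27.4 and 58.9 CPM in iCarP+/Light+ rats. Every MI rat lay above every Sham rat, and the iCarP+/Light+ rats overlapped with the lower MI rats. Tlr7 rose 5.96-fold in MI (log2 fold change 2.57, SE 0.30, adjusted p = 6.98e-06). Between iCarP+/Light+ and MI the log2 fold change was -0.71 (SE 0.28, adjusted p = 0.12), which did not pass the test.

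Tlr8, its neighbour on the X chromosome, was at 4.41, 5.60, 6.53 and 8.92 CPM in Sham, at 35.9, 39.3, 30.8 and 39.7 CPM in the MI group, and at 20.9, 30.2, 15.2 and 39.6 CPM in iCarP+/Light+ rats. MI and Sham did not overlap, and the highest iCarP+/Light+ rat reached the level of the MI rats. Tlr8 rose 5.72-fold in MI (log2 fold change 2.52, SE 0.28, adjusted p = 6.09e-06), and the log2 fold change in iCarP+/Light+ against MI, -0.46, did not pass the test (SE 0.26, adjusted p = 0.302). With total counts alone as the scale, Tlr7 (log2 fold change -0.98, adjusted p = 0.0158) and Tlr8 (-0.75, adjusted p = 0.0418) were both called lower in iCarP+/Light+ than in MI. The median of all genes was then -0.25, and relative to it Tlr7 stood at -0.73 and Tlr8 at -0.50. The ratio of Tlr7 to Tlr8 did not differ beyond its spread between any 2 groups, with log2 differences of 0.06, -0.20 and -0.14 (exact permutation p = 0.943, 0.486 and 0.600).

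Tlr9, the receptor for unmethylated CpG DNA, was the lowest of the 8. It was at 1.23, 0.819, 1.215 and 1.77 CPM in Sham, at 1.005, 1.73, 1.29 and 2.075 CPM in the MI group, and at 2.00, 2.24, 3.32 and 4.01 CPM in iCarP+/Light+ rats. MI overlapped with both other groups, and the iCarP+/Light+ rats were above all Sham rats. The log2 fold change was 0.28 in MI against Sham (SE 0.35, adjusted p = 0.504), 0.92 in iCarP+/Light+ against MI (SE 0.33, adjusted p = 0.0926) and 1.20 in iCarP+/Light+ against Sham (SE 0.34, adjusted p = 0.00763).

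Tlr3, the double-stranded RNA receptor that uses TRIF, was outside the 10 names and moved the opposite way. It fell from 19.5 to 45.0 CPM in Sham to 12.1 to 16.0 CPM in MI (log2 fold change -1.26, SE 0.25, adjusted p = 6.75e-04). In iCarP+/Light+ rats it was at 5.35 to 11.1 CPM, below every MI rat, with a log2 fold change of -0.81 that did not pass the test (adjusted p = 0.0526). It was called lower under 7 of 9 other processing choices, for example DESeq2 (-0.87, adjusted p = 0.0115), with an adjusted p of up to 0.238 among the 9. With 1 rat left out it was called in 2 of 12 fits, without iCarP+/Light+ rat 1 (-0.99, adjusted p = 0.0246) or Sham rat 2 (-0.81, adjusted p = 0.0162). The adjusted p was up to 0.116 among the 12. Of the other receptor genes, Tlr11 and Tlr12 were at 0.203 to 2.37 CPM in every rat and were not called in any of the 3 comparisons. Tlr11 was called higher in MI without Sham rat 5 (log2 fold change 1.73, adjusted p = 0.021) and lower in iCarP+/Light+ than in MI without iCarP+/Light+ rat 1 (-2.26, adjusted p = 0.0312) or with total counts alone as the scale (-1.8, adjusted p = 0.0442). Tlr10 and Tlr13 had no row under these symbols and are not analysed here.

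**Figure D2:**
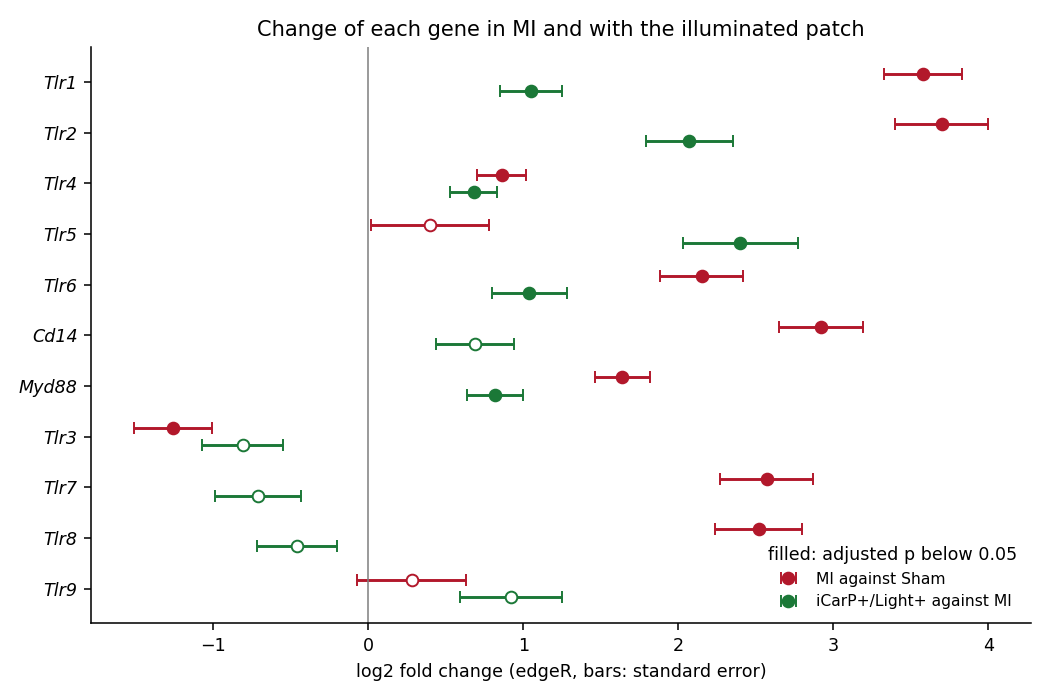
Log2 fold change (x axis) of 9 Toll-like receptors, Cd14 and Myd88 in MI against Sham (red) and in iCarP+/Light+ against MI (green), with bars for 1 standard error and filled points for an adjusted p below 0.05. Tlr5 is filled only in green (2.40), Tlr7 and Tlr8 only in red (2.57 and 2.52), and Tlr3 lies left of 0 in both.

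To compare levels between genes, CPM was divided by the gene length in the table (CPM per kb). In Sham, Cd14 (13.2 ± 2.37) and Myd88 (12.2 ± 2.16) led and overlapped, followed by Tlr2, Tlr4, Tlr7 and Tlr8, each of which overlapped with the next, then Tlr5 and Tlr9. In MI the order by mean CPM per kb was Cd14 (99.6 ± 36.8), Tlr2 (55.95 ± 11.3), Myd88 (38.0 ± 6.02), Tlr7 (18.3 ± 4.65), Tlr8 (10.8 ± 1.21), Tlr4 (6.93 ± 0.655), Tlr5 (1.31 ± 0.636) and Tlr9 (0.469 ± 0.145), and neighbours overlapped only for Cd14 with Tlr2 and for Tlr2 with Myd88. In iCarP+/Light+ rats, Tlr2 (234 ± 75.0) was highest by mean and overlapped with Cd14 (161 ± 35.45), while Tlr7, Tlr4, Tlr8 and Tlr5 lay between 3.41 and 14.5 CPM per kb and overlapped with one another (SD, n = 4 each).

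The 9 receptors Tlr1 to Tlr9 were then summed per rat as CPM per kb, and the split into cell-surface (Tlr1, Tlr2, Tlr4, Tlr5 and Tlr6) and endosomal receptors (Tlr3, Tlr7, Tlr8 and Tlr9) was made after the values were seen. The sum was 23.5 ± 5.54 in Sham, 107.6 ± 16.0 in the MI group and 296 ± 90.3 in iCarP+/Light+ rats. Surface receptors made up 44.6% ± 5.95 of it in Sham (39.5% to 53.2%), 69.3% ± 2.26 in MI (66.0% to 71.0%) and 92.4% ± 2.155 in iCarP+/Light+ rats (89.8% to 94.9%, SD, n = 4 each), with no overlap between groups. Tlr2 alone was 18.1% ± 3.92, 51.7% ± 3.71 and 78.8% ± 2.16 of the sum. Mean shares of the other surface receptors did not all move that way. From Sham to MI to iCarP+/Light+ they were 16.7%, 6.49% and 3.905% for Tlr4, 4.42%, 1.23% and 2.29% for Tlr5, 2.36%, 2.23% and 1.62% for Tlr6, and 2.94%, 7.70% and 5.82% for Tlr1. Tlr3, the largest share in each Sham rat, was 32.9% ± 5.63 there, 3.11% ± 0.673 in the MI group and 0.722% ± 0.426 in iCarP+/Light+ rats. Tlr7 held 12.9% ± 1.37, 16.8% ± 2.06 and 3.92% ± 1.315 (SD, n = 4 each). These shares are given as a description, without a test.

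**Figure D3:**
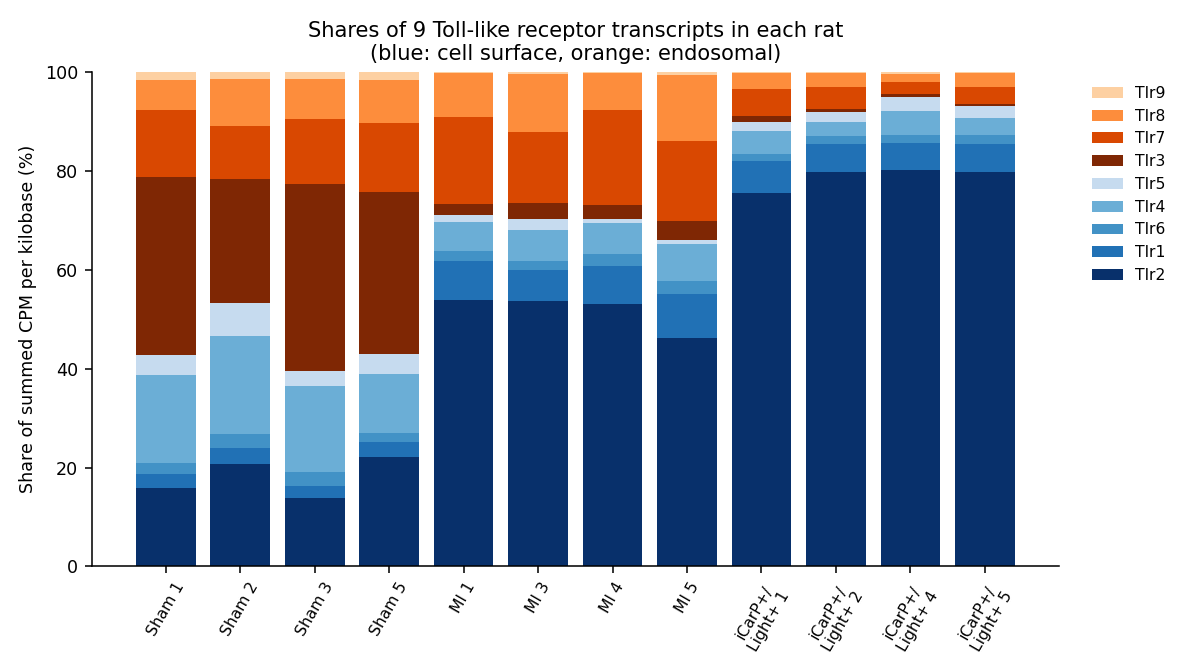
Share of the summed CPM per kb (y axis, percent) that each of 9 Toll-like receptors took in each of the 12 rats (x axis), with surface receptors in blue and endosomal receptors in orange to brown. The blue part takes 39.5% to 53.2% in the Sham bars, 66.0% to 71.0% in the MI bars and 89.8% to 94.9% in the iCarP+/Light+ bars, and the darkest blue, Tlr2, makes up most of it in MI and iCarP+/Light+.

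The levels were next set against Ptprc, which encodes CD45 and is carried by leukocytes in general. Ptprc was at 26.8 to 45.4 CPM in Sham, 239 to 324 CPM in the MI group and 379 to 681 CPM in iCarP+/Light+ rats, with log2 fold changes of 3.07 in MI against Sham (adjusted p = 2.09e-07) and 0.84 in iCarP+/Light+ against MI (adjusted p = 0.0152). Tlr2 rose beyond Ptprc in both steps, by a log2 ratio of 0.64 in the MI group and 1.21 in iCarP+/Light+ (exact permutation p = 0.0286, adjusted p = 0.0449 each). Relative to Ptprc, Tlr4, Tlr5, Tlr9 and Myd88 were lower in MI than in Sham, by log2 differences of -2.23, -2.81, -2.88 and -1.45 (the same exact permutation p and adjusted p each). In that comparison the ratios of Tlr7 (-0.51) and Tlr8 (-0.56) to Ptprc did not pass (exact permutation p = 0.0571, adjusted p = 0.0819 each). Relative to Ptprc, Tlr7 and Tlr8 were lower in iCarP+/Light+ than in MI, by -1.55 and -1.36, with no overlap between the groups, and Tlr5 was higher by 1.58 (exact permutation p = 0.0286, adjusted p = 0.0449 for each of the 3). Between these groups Myd88 (-0.00, p = 0.971), Cd14 (-0.07, p = 0.800), Tlr9 (0.07, p = 0.83) and Tlr4 (-0.16, p = 0.371) did not differ from Ptprc beyond their spread by the exact permutation test. For Cd14, MI did not differ from Sham beyond the spread either (-0.23, exact permutation p = 0.371). Of 8 neutrophil markers, Mpo (at most 1 count in any rat) and Ngp did not pass the filter on low counts. Ngp had means of 0.418, 0.224 and 0.291 CPM in Sham, MI and iCarP+/Light+ rats. Of the 6 tested neutrophil markers, 6 were called higher in iCarP+/Light+ than in MI, and of 7 tested monocyte and macrophage markers 1 was called higher (Adgre1) and 1 lower (Mrc1), where 11.6% of all genes were called higher and 2.01% lower. The difference between these lists was not tested.

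**Figure D4:**
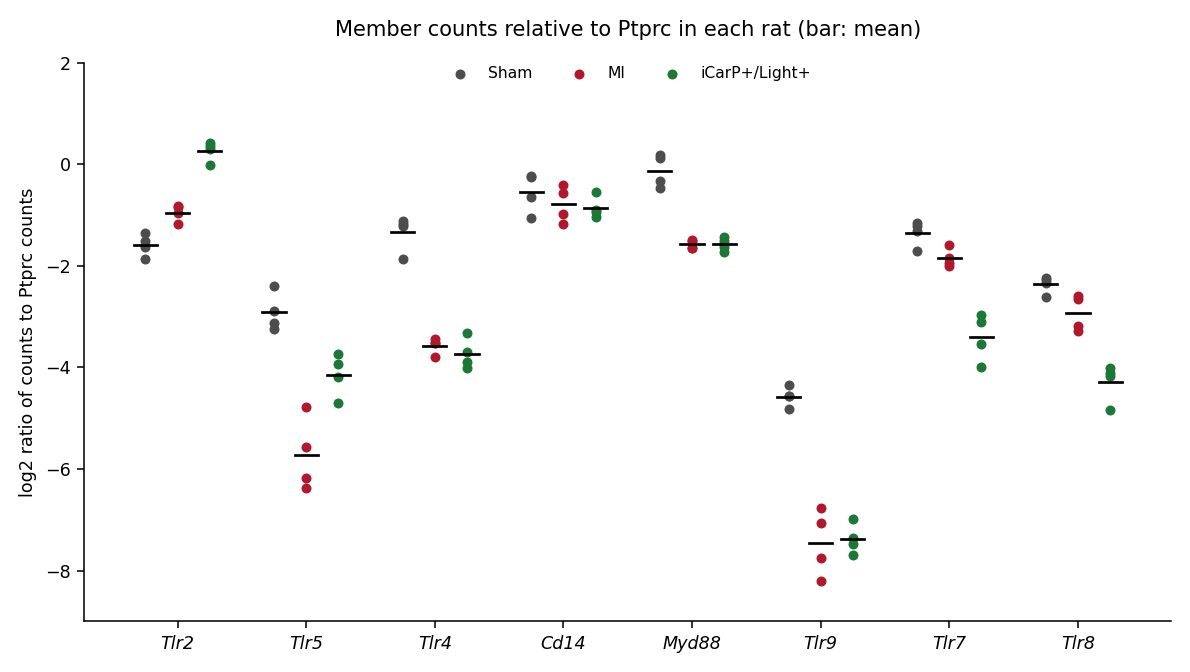
Log2 ratio of each gene's counts to Ptprc counts (y axis) in each rat of the Sham (grey), MI (red) and iCarP+/Light+ (green) groups, with bars at group means. Tlr2 climbs from -1.59 to -0.95 to 0.27 by group mean, whereas Tlr7 goes from -1.34 to -1.85 to -3.40 and Tlr8 from -2.36 to -2.92 to -4.28, where the first step of Tlr7 and Tlr8 did not pass the test.

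Among the 12 rats, the pairs of the 8 genes with the highest Pearson r of log2 CPM were Tlr2 with Myd88 (0.99), Tlr2 with Cd14 (0.97), and Tlr2 with Tlr4 and Cd14 with Myd88 (0.96 each). The r of Tlr7 with Tlr8 was 0.95, and the pair with the lowest r was Tlr5 and Tlr7 (0.28). These are descriptions over 12 rats of 3 groups that share libraries and the shift between groups. Among 10722 protein-coding genes with a mean of at least 5 CPM, those most like Tlr2 were Fgr (0.998), a kinase of myeloid cells, Cd53 (0.997), a tetraspanin of leukocytes, and Lrrc25 (0.997). Most like Tlr7 were Ms4a6a (0.982), C2 (0.980), which encodes a complement component, and Mnda (0.978). Most like Cd14 were Arpc3 and Actr3 (0.994 each), subunits of the actin-branching Arp2/3 complex, and Capza1 (0.991), which caps actin filaments. Tlr4 was closest to RGD1562136 (0.984), Plin2 (0.983), a lipid droplet coat protein, and Nipa2 (0.982), a magnesium transporter.

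Other genes of the pathway were taken from lists in the order of the signal, beginning with molecules that bind these receptors without a microbe. Each count below stands against the shares over all genes tested, 30.2% higher and 33.6% lower in MI against Sham, and 11.6% higher and 2.01% lower in iCarP+/Light+ against MI. Of 9 such endogenous ligands, 5 were higher and 1 lower in MI than in Sham, with S100a8 (log2 fold change 6.37), S100a9 (5.94) and Tnc, the matrix protein tenascin C (4.41), the largest and the matrix proteoglycan Dcn lower. With the illuminated patch 4 of 9 rose over MI, among them S100a9 (3.53), S100a8 (3.37) and Tnc (0.83), and none fell. S100a8 and S100a9 are also abundant in neutrophils. S100a8 was at 0.950 ± 0.334 CPM in Sham, 78.9 ± 35.3 CPM in the MI group and 813 ± 359 CPM in iCarP+/Light+ rats (SD, n = 4 each).

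Of 8 chaperones and co-receptors, 7 were tested, and 6 rose and 1 fell in MI. Among those that rose were Unc93b1, which escorts endosomal receptors (log2 fold change 2.15), and Cd180 (2.57) with its partner Ly86 (2.14), a receptor pair related to TLR4 and MD-2. In iCarP+/Light+ against MI, Cd180 (-1.01, adjusted p = 0.0198) and Ly86 (-1.46, adjusted p = 0.00326) fell. Lbp, the lipopolysaccharide-binding protein, fell in MI (-1.21, adjusted p = 0.0105) and was higher in iCarP+/Light+ than in MI (2.15, adjusted p = 0.00146). Its mean was 15.2 ± 7.14 CPM in Sham, 6.59 ± 1.73 CPM in the MI group and 29.4 ± 13.3 CPM in iCarP+/Light+ rats (SD, n = 4 each).

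Of 18 further adaptors and proximal kinases, 9 rose and 1 fell in MI, with Ikbke, an IKK-related kinase, the largest (log2 fold change 2.76). In iCarP+/Light+ against MI 5 rose and 1, Tab1, fell. The largest was Irak2, a kinase of the MyD88 complex, which was at 20.5 ± 5.36 CPM in the MI group and 135 ± 51.8 CPM in iCarP+/Light+ rats (SD, n = 4 each, log2 fold change 2.72, adjusted p = 7.1e-05), followed by the ubiquitin ligases Traf6 (1.29) and Traf3 (0.92). Irak1 and Irak4, of the same complex, were not called in that comparison (log2 fold changes -0.23 and 0.29, adjusted p = 0.123 and 0.327).

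For factors that restrain the pathway, in MI against Sham 3 of 12 rose (25.0%, against 30.2% of all genes) and 1 fell (8.33%, against 33.6%). In iCarP+/Light+ against MI 8 of 12 rose (66.7%, against 11.6% of all genes) and none fell, with a median log2 fold change of 1.25. Tnfaip3, which encodes the ubiquitin-editing enzyme A20, was at 11.3 ± 1.83 CPM in Sham, 15.5 ± 4.50 CPM in the MI group and 181.5 ± 64.4 CPM in iCarP+/Light+ rats (SD, n = 4 each), a log2 fold change of 3.55 over MI. Nfkbia, the inhibitor of NF-kB (3.13), and Zc3h12a, an RNase that degrades cytokine mRNAs (3.04), were next. All of these are also known targets of NF-kB. The log2 fold change of Irak3, an inhibitory member of the IRAK family, was 2.75, and those of Tollip (0.05) and Sigirr (-0.33) did not pass the test.

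Of 10 transcription factors, 4 rose in MI, where 30.2% of all genes did, led by Irf5 (log2 fold change 2.92) and Irf8 (2.29), interferon regulatory factors of myeloid cells, and the NF-kB subunit Rel (1.18). In iCarP+/Light+ against MI the 5 genes of NF-kB subunits rose, with the largest values for Nfkb2 (2.28), Rel (1.91) and Relb (1.30), and Irf5 fell (-0.60, adjusted p = 0.0297).

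Target genes of the MyD88 and the TRIF arm were counted separately. Of the 12 names for the MyD88 arm, Nos2 had no row. Il12b, with at most 8 counts in any rat, did not pass the filter on low counts. Of 10 tested targets of the MyD88 arm, 8 rose in MI over Sham and 10 rose in iCarP+/Light+ over MI, with a median log2 fold change of 4.84 in the latter. Tnf and Il1a passed the filter only through the iCarP+/Light+ rats, so their calls over MI are not independent of that filter. The count and the median include them. The alarmin cytokine Il1a had 0 to 13 counts in each MI rat and 2998 to 5244 counts in each iCarP+/Light+ rat. The neutrophil chemokine Cxcl2 was at 0.240 ± 0.158 CPM in Sham, 11.55 ± 5.94 CPM in the MI group and 2359 ± 798 CPM in iCarP+/Light+ rats, and Il1b was at 2.61 ± 0.966, 42.9 ± 14.7 and 1691 ± 571 CPM (SD, n = 4 each). Tnf stayed near the floor in MI, at 0.0494 ± 0.0678 CPM, and was at 1.27 ± 0.464 CPM in iCarP+/Light+ rats. Of 7 tested targets of the TRIF arm, which are interferon-inducible, none rose and 2 fell in MI, Ifit2 and Rsad2 (log2 fold change -2.31 each, adjusted p = 0.00186 and 0.00203). The Sham rats differed widely in these genes. Ifit2 was at 72.0 to 517 CPM in Sham and 43.0 to 111 CPM in MI rats, which overlapped, and Rsad2 was at 64.9 to 313 and 14.5 to 64.8 CPM, without overlap. In iCarP+/Light+ against MI 1 rose, Ifit3 (2.51, adjusted p = 0.0352), and none fell. Ifnb1, the interferon that TRIF induces, had 0 counts in each MI and iCarP+/Light+ rat, which allows a level of up to 0.211 CPM in the shallowest of these rats by scaled size, and was not tested. These targets are induced by many other signals as well, and which receptor acted was not measured.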

How the data were processed

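The authors deposited unnormalized counts of reads per gene and rat, made from total RNA libraries (NEBNext Ultra kit) and, per the submitters' processing notes, with HISAT2, featureCounts and build rn6. The strand setting and annotation release are not given in the sources used here. Reads from a gene and an antisense partner could therefore not be separated, although no other row overlapped the 8 genes. Groups came from the sample labels.

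Counts were analysed with edgeR 4.0.16 in R 4.3.3. filterByExpr (minimum count 10) left 15101 genes of 34599, TMM scaled the libraries, and 1 mean per group was fitted to the 12 rats in a quasi-likelihood model. A rat's number in the labels does not link it to a rat of another group, so no block was used. Log2 ratios of counts (prior count 2) were compared by two-sided exact permutation tests over 70 arrangements of 4 against 4 rats. Ratios with Ly96 or Ticam1 could not be computed. Means are given with the SD.

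The 10 names, the pathway lists and the marker lists were chosen with earlier results of these data known. Within a list, the text names up to 3 called genes with the largest absolute log2 fold change per comparison, every member and every other Toll-like receptor. Other genes (Ly86, Unc93b1, Lbp, Irak1, Irak4, Irak3, Tollip, Sigirr, Il1b, Tnf, Il12b, Nos2, Ifnb1, Dcn, Tab1, Adgre1, Mrc1, Mpo, Ngp, Cd3d, Cd3e, Cd3g, Xcr1, Clec9a, Zbtb46, Flt3 and Siglech) were named after their values were seen where a rule did not name them. Likeness used Pearson correlation over 12 rats.

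In simulated counts for MI against Sham, with 15101 genes, edgeR called 173 of 200 genes changed 4-fold and 111 of 200 changed 2-fold, pooled over 2 simulations. Few genes changed there, up or down at random, whereas 63.8% of all genes were called in the data. These rates need not hold for the data. Counts per rat were 14064414 to 17136958, and the floor of 3 counts covers counting error only. In 18 pairs of rats within a group, the chi-square per gene was 14 to 111, so no library was a copy of another of its group. Pairs across groups were not compared. Alternatives were DESeq2 1.42.0, its size factors in edgeR, total counts alone, limma-voom (limma 3.58.1), other filters on low counts, no mitochondrial genes, the compared rats alone, a replicate block and leaving out each rat.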

Additional observations from a re-analysis of the deposited data

Results flagged for a closer look

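In 45 groups of 4 rats (15 genes, 3 groups), a rat was set against its group by the gap to its nearest neighbour as a share of the group's range, against Dixon's 95% limit. Chance passes about 1 in 20 such groups, or 2.25 of 45, and 2 passed. Tlr2 in Sham rat 5 had a gap of 0.902, at 17.6 CPM against 8.73 to 9.35 CPM in the other 3 Sham rats. Tlr1, the partner of TLR2, had a gap of 0.883 in the same rat, at 2.21 CPM against 1.37 to 1.45 CPM. Sham rat 5 also had the highest Ptprc (45.4 CPM) and the highest summed neutrophil markers (8.03 CPM) of the Sham rats, and the highest sums of the monocyte and macrophage (599 CPM), dendritic cell, T cell and B cell markers. Without this rat, the log2 fold change of Tlr2 in MI against Sham was 4.01 instead of 3.70 (edgeR, adjusted p = 7.81e-07).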

How the results depend on the processing

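Over the 9 settings other than leaving out rats, 6 of the 8 genes were called higher in MI than in Sham and none lower, except that total counts alone gave 8 higher. In iCarP+/Light+ against MI 3 or 4 were called higher, and none was called lower except with total counts alone, which gave 2 (Tlr7 and Tlr8). Against Sham, 8 were higher in iCarP+/Light+ rats under each of the 9. With 1 rat left out, the count of genes higher was 6 in MI against Sham, 3 to 5 in iCarP+/Light+ against MI and 8 in iCarP+/Light+ against Sham. Total counts alone moved the median of all genes to 0.52, -0.25 and 0.33 in MI against Sham, iCarP+/Light+ against MI and iCarP+/Light+ against Sham. They also took Tlr9 (0.86), Tlr11 (1.5) and Tlr12 (1.12) past the threshold in MI against Sham, and Tlr11 (-1.8) and Tlr3 (-1.07) in iCarP+/Light+ against MI.

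A replicate block was tried in edgeR, although rats with the same number did not deviate together (correlations of -0.15 to 0.07). Under the replicate block 3 of the 8 genes were called higher with the illuminated patch than in MI, since Myd88 (0.73, adjusted p = 0.0602) was not called, and neither was Tlr6 (0.97, adjusted p = 0.0681). Tlr12 in iCarP+/Light+ against Sham, at 0.00, changed sign with limma-voom (-0.19), without mitochondrial genes (-0.01), with the replicate block (-0.15) and in some of the fits with 1 rat left out (range -0.52 to 0.27). Tlr11 in that comparison, at -0.62, ranged from -1.32 to 0.18 with 1 rat left out. The cause of these changes was not tested.

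With 4 rats a group, a missed threshold does not show that levels were equal, and Tlr9, Tlr11 and Tlr12 rest on few counts.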
